A study of Rattus norvegicus with 13 samples.

Results

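Osmolyte genes encode the carriers and enzymes with which a cell fills itself with small organic solutes, together with the regulators of those carriers and a water channel. The set comprised 10 genes taken by symbol. They were the inositol transporter Slc5a3, the inositol synthase Isyna1, the taurine transporter Slc6a6, the betaine transporter Slc6a12, the amino acid transporter Slc38a2, the aldose reductase Akr1b1, the transcription factor Nfat5, the ascorbate transporter Slc23a2, the water channel Aqp1 and the kinase Sgk1. Of these, 9 had at least 1 probe set annotated to that gene alone, among 14217 genes with a probe set of their own on the array. Slc6a12 had no probe set of its own in the platform annotation and was not measured here.

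Cells that meet a more concentrated medium lose water, first take up ions, and then replace the ions with organic osmolytes such as inositol, sorbitol, taurine, betaine and neutral amino acids, which do not disturb proteins. NFAT5 is the transcription factor best known for raising the genes of these carriers and enzymes. Chondrocytes live in a matrix rich in charged aggrecan and therefore in a concentrated and changing ionic surrounding, and they are known to use this system.

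The cells were articular chondrocytes of male Wistar rats aged 2 months, isolated from femoral head cartilage, in the second passage of culture and drawn from 1 pool. All groups were grown in serum-containing medium, and each Affymetrix Rat Genome 230 2.0 array held RNA of 1 flask. Per the study, not every flask was hybridized. Arrays of the untreated and glucosamine-alone groups that failed its quality control were left out. The 4 groups were untreated cells (n = 3 arrays), cells given 20 mM glucosamine for 20 hours (n = 2), cells given 10 ng/ml of the cytokine IL-1β for 14 hours (n = 4), and cells given the same glucosamine 6 hours before the same IL-1β (n = 4). Since the flasks shared 1 pool of cells, p-values measured only the spread between flasks and arrays, and the small number of arrays, above all the 2 with glucosamine alone, limited the precision. No group used here received another solute at 20 mM, so glucosamine and the solute load it brings cannot be told apart.

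Signals were linear and scaled, with mean signals of 127 to 145 per array. Both arrays named replicate d, 1 with IL-1β and 1 with glucosamine plus IL-1β, stood apart most in their dimmest values. Their 1st percentile reached down to -36.8, against -6.47 to -4.81 on the other 11 arrays. Their 75th percentile was also higher, at 118.7 with IL-1β and 118.6 with both agents, against 111.9 to 113.6. Without both d arrays, 67 of 70 changes of the osmolyte probe sets over all comparisons kept their direction and their side of the threshold, and the other 3 moved past it. The chondrocyte label was checked on markers. Each marker was read by its brightest probe set alone, and other probe sets of the markers were not examined. On that probe set Col2a1, the main collagen of cartilage, had a mean signal of 3819 ± 346 (SD, n = 3) on untreated arrays. All 6 measured chondrocyte markers, of 9 listed, were above the floor of 5.71 on every array. On every untreated array, 1 of 6 leukocyte and 2 of 4 endothelial markers were above it. All 5 fibroblast markers were also above it on every array. Their summed signal was 9821 to 11082 untreated, beside 9387 to 10630 for the chondrocyte markers. With IL-1β the sums were 8038 to 9548 and 5100 to 6187. These markers therefore did not tell chondrocytes from fibroblasts. The summed signal of the leukocyte markers was 28.8 to 40.1 untreated, 58.0 to 73.2 with glucosamine, 223 to 328 with IL-1β and 107 to 219.7 with both. Without the d arrays it was 222.8 to 262.4 with IL-1β and 106.5 to 107.5 with both. Cd68 of macrophages was below the floor on every untreated array and had means of 34.7 with glucosamine and 188 with IL-1β. None of the other leukocyte markers, Ptprc, Csf1r, Itgam, Lyz2 and Cd3e, was called with IL-1β in limma. Their means with IL-1β ran from 1.41 for Itgam to 31.1 for Lyz2. The part of leukocytes in the results was not tested.

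Stretches of DNA before the transcription start of 4 of the genes and of Mrps6, the gene that encloses Slc5a3, are shown. Isyna1, Slc23a2 and Slc5a3 had the widest ranges of group means, and Slc6a6 held the full consensus searched for. They are RefSeq sequences of the rat build GRCr8, 250 bases long, ending at the base before the start, and read 5′ to 3′ on the gene's own strand. Capitals mark a match, on either strand, to TGGAAA, the core of the tonicity-responsive enhancer to which NFAT5 binds, or to the full consensus of that enhancer where it was met.
Slc6a6, chr4:125752252-125752501, plus strand: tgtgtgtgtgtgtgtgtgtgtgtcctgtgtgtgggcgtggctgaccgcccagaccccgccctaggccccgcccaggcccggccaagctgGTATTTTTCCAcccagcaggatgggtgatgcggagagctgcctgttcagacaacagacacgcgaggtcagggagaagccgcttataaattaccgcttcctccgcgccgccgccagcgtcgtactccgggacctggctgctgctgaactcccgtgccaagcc
Slc5a3, chr11:44799537-44799786, plus strand: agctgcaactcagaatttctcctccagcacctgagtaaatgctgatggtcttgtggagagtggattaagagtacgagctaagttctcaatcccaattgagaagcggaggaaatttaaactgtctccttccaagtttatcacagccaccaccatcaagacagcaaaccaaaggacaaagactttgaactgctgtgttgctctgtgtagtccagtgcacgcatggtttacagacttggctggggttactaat
Mrps6, chr11:44778417-44778666, plus strand: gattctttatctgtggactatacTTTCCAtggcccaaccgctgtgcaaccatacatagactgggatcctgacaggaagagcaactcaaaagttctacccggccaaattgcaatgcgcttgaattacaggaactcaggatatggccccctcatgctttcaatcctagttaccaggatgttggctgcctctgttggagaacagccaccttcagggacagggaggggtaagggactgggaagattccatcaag
Isyna1, chr16:18875956-18876205, minus strand: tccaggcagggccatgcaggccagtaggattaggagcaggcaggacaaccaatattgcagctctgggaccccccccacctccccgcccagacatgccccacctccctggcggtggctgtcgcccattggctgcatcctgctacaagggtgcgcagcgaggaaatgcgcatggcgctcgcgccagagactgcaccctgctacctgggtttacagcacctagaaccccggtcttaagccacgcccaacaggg
Slc23a2, chr3:139847344-139847593, minus strand: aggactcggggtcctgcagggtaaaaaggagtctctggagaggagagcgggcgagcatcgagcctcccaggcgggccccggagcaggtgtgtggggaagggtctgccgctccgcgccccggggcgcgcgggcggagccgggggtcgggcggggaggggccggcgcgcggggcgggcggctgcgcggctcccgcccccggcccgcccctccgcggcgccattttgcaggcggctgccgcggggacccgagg

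Of the 10 genes, 8 were present in the RefSeq table with 10 promoters in all, since Sgk1 had several starts. TGGAAA was in 2 of these 10 windows, those of Slc6a6 and of 1 start of Sgk1, against 19.7% of all 33469 rat promoters of that length. The full tonicity-responsive enhancer consensus was in the Slc6a6 window only, on the opposite strand and 151 bases before the start, against 5.17% of all promoters. In the Mrps6 window TGGAAA lay 222 bases before the start. Within these 250 bases the windows of Slc5a3, Isyna1 and Slc23a2 held neither. A match of letters is a description and no measurement of binding.

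In cells given glucosamine alone, 5 of the 9 measured genes rose and 1 fell against untreated cells at an adjusted p under 0.05, where 7.14% of all 29263 tested probe sets rose and 7.56% fell. These shares are over probe sets, many of them dim or without a gene, while each gene was counted by its brightest probe set. With 1 probe set per gene, 1567 genes rose and 1391 fell, of at most 14217. Isyna1, Slc23a2, Slc5a3, Sgk1 and Akr1b1 rose, Aqp1 fell, and Slc6a6, Slc38a2 and Nfat5 did not pass the test. The median log2 change of the 9 genes was 0.79, beside a median of 0.00 over all tested probe sets. The genes were chosen with earlier results of these data known. Their counts and medians beside the background therefore describe the set and are no test of it. IL-1β alone raised 4 genes and lowered 1 of the 9, where 11.1% of all probe sets rose and 13% fell. Those that rose were Sgk1, Slc23a2, Isyna1 and Akr1b1, and Aqp1 again fell. The median log2 change of the 9 genes was 0.20, beside 0.10 over all. In cells with both agents against IL-1β alone, 5 genes rose and 0 fell, where 11.9% of all probe sets rose and 11.4% fell. The genes were Isyna1, Slc5a3, Slc23a2, Slc6a6 and Slc38a2, with a median of 0.33 over the 9, beside 0.03 over all.

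**Figure D1:**
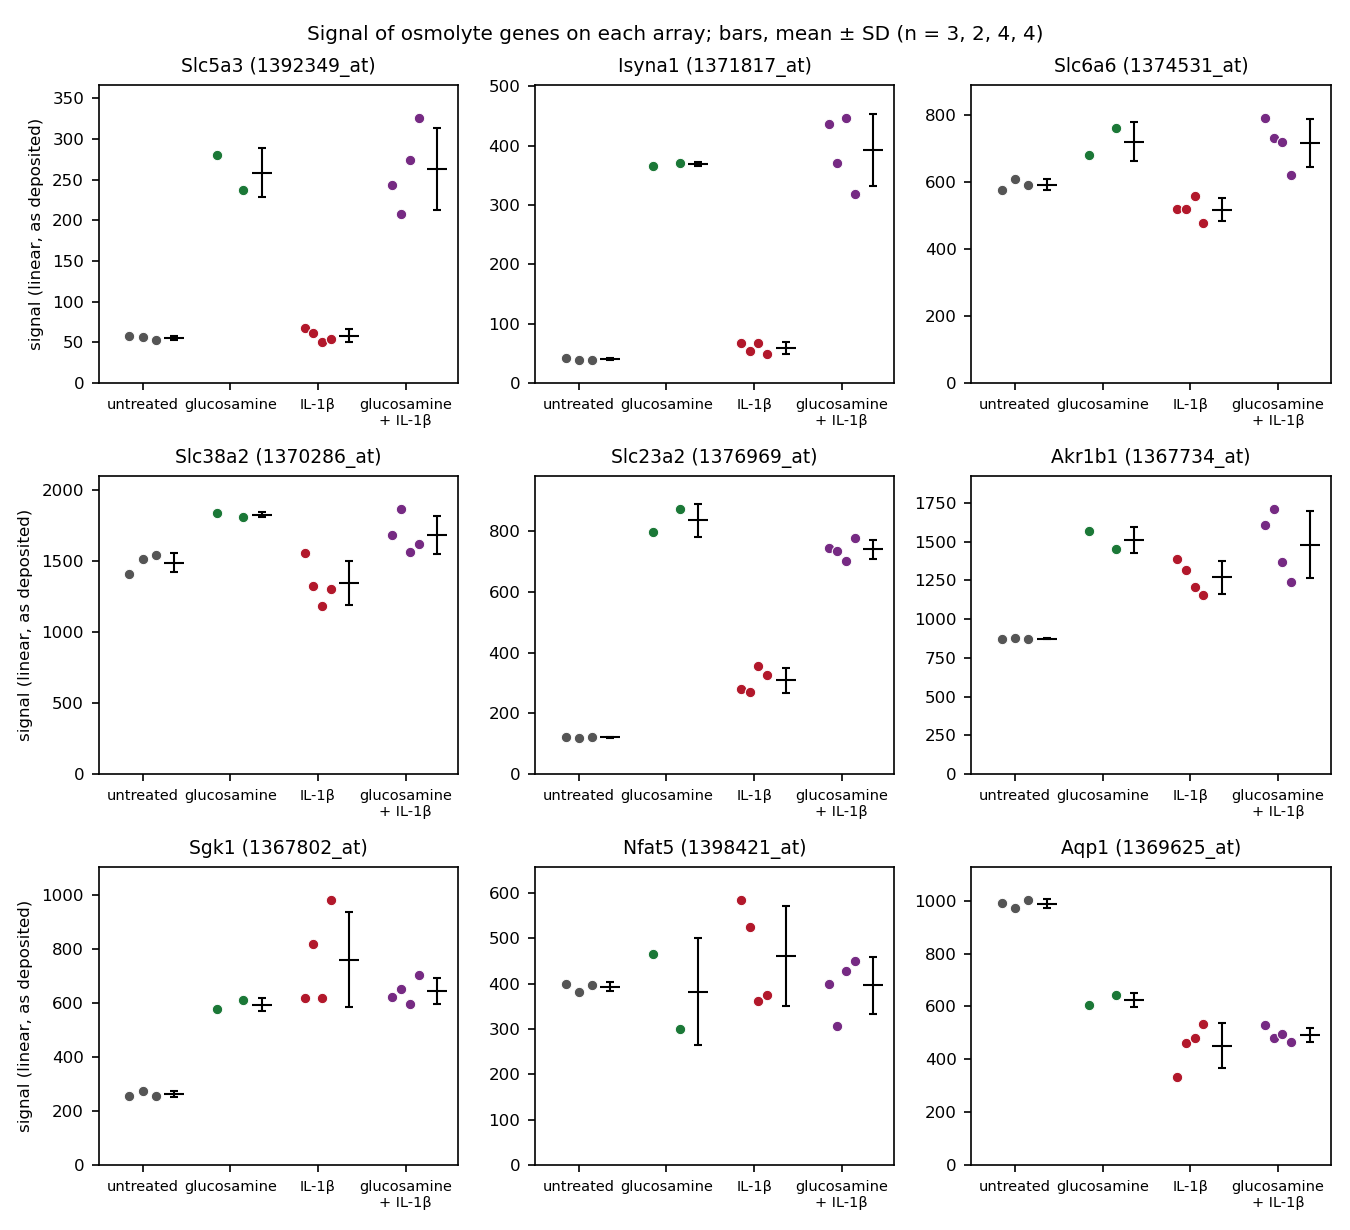
Signal of each measured osmolyte gene on every array (vertical axis, linear signal as deposited, from 0), by treatment group on the horizontal axis, with the gene's brightest probe set. Points are arrays, and bars give the mean ± SD. Slc5a3 and Isyna1 were high on all 6 arrays with glucosamine and low on the 7 without it, whereas Sgk1 and Aqp1 differed mainly between the untreated arrays and all others.

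**Figure D2:**
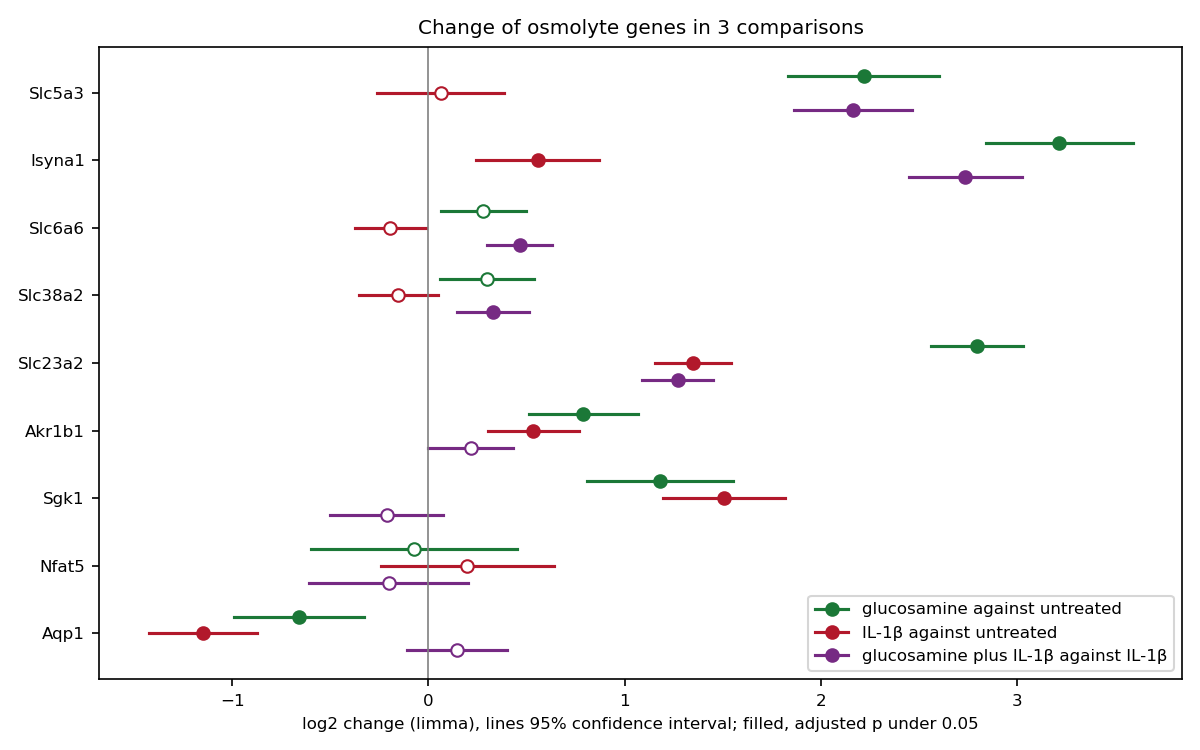
Log2 change (horizontal axis) of each measured osmolyte gene (vertical axis) in 3 comparisons, with 95% confidence intervals from limma. Filled points passed an adjusted p of 0.05. Glucosamine moved Slc5a3 by nearly the same amount without IL-1β (2.22) and with it (2.16), while the change of Slc23a2 was 2.79 without and 1.27 with it.

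Both measured inositol genes rose with glucosamine, in the absence of IL-1β and in its presence. Slc5a3 encodes a sodium-driven carrier that brings inositol into the cell. Its signal was 57.3, 56.3 and 53.0 on the untreated arrays, 280.0 and 238 with glucosamine, 67.9, 61.0, 50.5 and 54.0 with IL-1β, and 244, 208, 274 and 326 with both. All 6 arrays with glucosamine lay above all 7 without it. With glucosamine alone Slc5a3 was 4.65-fold higher than untreated (log2 change 2.22, SE 0.18, limma adjusted p = 7e-06), and in the presence of IL-1β glucosamine raised it 4.48-fold (adjusted p = 4.75e-07). IL-1β alone left it at a log2 change of 0.06, with a 95% confidence interval of -0.26 to 0.39. The other Slc5a3 probe set, 1379066_at, was below the floor on all arrays but the d arrays and gave no usable level.

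Isyna1, the enzyme that makes inositol phosphate from glucose 6-phosphate, had the largest change among the 9 genes. Its signal was 41.5, 38.6 and 39.1 in untreated cells, 366 and 371 with glucosamine, 67.9, 53.1, 67.0 and 48.1 with IL-1β, and 436, 371, 447 and 318 with both. Again the arrays with and without glucosamine did not overlap. The rise with glucosamine was 9.28-fold (log2 change 3.21, SE 0.17, adjusted p = 4.97e-07), and on top of IL-1β it was 6.66-fold (adjusted p = 6e-08). IL-1β alone gave a smaller rise of 1.47-fold (adjusted p = 0.0133), and every IL-1β array was above every untreated one. That smaller call was lost under quantile normalization (adjusted p = 0.183), in a fit of the 2 groups alone (adjusted p = 0.0537) and without the untreated replicate b (adjusted p = 0.0518).

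Slc5a3 lies within the span of Mrps6, a mitochondrial ribosomal protein gene, on the same strand in RefSeq, so how far transcripts of the enclosing gene add to a signal is uncertain. The Mrps6 probe set had mean signals of 329 ± 13.1 (SD, n = 3) untreated, 629 ± 18.9 (n = 2) with glucosamine, 391 ± 28.5 (n = 4) with IL-1β and 627 ± 28.5 (n = 4) with both. It rose 1.91-fold with glucosamine (adjusted p = 8.01e-06), beside the 4.65-fold rise of Slc5a3. Over the 13 arrays the log2 signals of Mrps6 and Slc5a3 had a Pearson r of 0.96, on points that share groups and flasks.

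Of 10 further genes of inositol uptake, synthesis and breakdown, 0 rose with glucosamine and 1 fell, where 7.14% of all probe sets rose and 7.56% fell. At an unadjusted p under 0.05 in limma 3 were higher and 1 lower, where 11.9% of all probe sets were higher and 12% lower. The list's median log2 change was 0.16, beside 0.00 over all probe sets. The gene that fell was Impa2, a phosphatase that frees inositol from its phosphate, with a log2 change of -0.50 (adjusted p = 0.00355). Its relative Impa1 had a log2 change of -0.17 (adjusted p = 0.271). Cdipt, which joins inositol to lipid, was 0.36 higher without passing the test (adjusted p = 0.0624) but rose on top of IL-1β, by 0.57 (adjusted p = 0.000569).

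The carriers of taurine and of neutral amino acids passed the test for glucosamine on top of IL-1β. They did not pass it against untreated cells, but the 2 changes were not shown to differ, with interactions of 0.18 for Slc6a6 (adjusted p = 0.605) and 0.03 for Slc38a2 (adjusted p = 1). Slc6a6 takes up taurine with sodium and chloride. Its brightest probe set read 575, 609 and 589 untreated, 678 and 759.6 with glucosamine, 517, 519, 556 and 476 with IL-1β, and 791, 730.0, 718 and 620.4 with both. The 4 groups lined up with IL-1β lowest, untreated next and both glucosamine groups highest, and the glucosamine arrays did not overlap the untreated arrays. On top of IL-1β the rise was 1.38-fold (log2 change 0.46, SE 0.08, adjusted p = 0.000826). Against untreated cells the log2 change was 0.28 with glucosamine (95% confidence interval 0.06 to 0.50, adjusted p = 0.0874) and -0.19 with IL-1β (adjusted p = 0.12), and neither passed the test. Without both d arrays the change with glucosamine did (adjusted p = 0.0146). A further Slc6a6 probe set, 1368778_at, did not follow this order. It read 243, 294 and 269.7 untreated and 222 and 166 with glucosamine, and with the mean of both probe sets the rise on top of IL-1β was no longer called (log2 change 0.21, adjusted p = 0.274).

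Slc38a2 carries small neutral amino acids such as alanine and glutamine into the cell. It read 1409, 1510.0 and 1539 untreated, 1838 and 1811 with glucosamine, 1557, 1326, 1184 and 1302 with IL-1β, and 1683, 1867, 1559.7 and 1617 with both. The lowest array with both agents stood just above the highest IL-1β array. The rise on top of IL-1β was 1.26-fold (log2 change 0.33, SE 0.08, adjusted p = 0.014), and in a fit of those 2 groups alone it missed the threshold (adjusted p = 0.0583). Against untreated cells glucosamine gave a log2 change of 0.30 (adjusted p = 0.103), with a 95% confidence interval of 0.06 to 0.54.

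Among 9 further amino acid transporters, 4 rose and 1 fell with glucosamine, with a median log2 change of 0.39, where 7.14% of all probe sets rose and 7.56% fell. Slc3a2, the heavy chain shared by several exchangers, rose by 1.30 (adjusted p = 9.9e-06) and Slc7a11, the cystine carrier that pairs with it, by 0.61 (adjusted p = 0.00329). The arginine carrier Slc7a1 rose by 0.48 (adjusted p = 0.00422), and the glutamate carrier Slc1a3 fell by 0.48 (adjusted p = 0.0242). The dimmest of its 3 probe sets pointed the other way, with means of 6.22 ± 1.41 (SD, n = 3) untreated and 20.5 ± 5.19 (n = 2) with glucosamine, a log2 change of 1.63 that did not pass the test (adjusted p = 0.0678). On top of IL-1β these genes parted. Slc3a2 rose by 0.92 (adjusted p = 9.79e-06), while Slc7a11, raised by IL-1β alone by 2.03, fell by 1.66 (adjusted p = 1.2e-07).

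In the list for taurine, betaine, creatine and glycerophosphocholine, 11 genes were tested, of which 2 rose and 3 fell with glucosamine, with a median of 0.00, beside the same background shares of 7.14% and 7.56%. The creatine transporter Slc6a8 rose by 1.32 (adjusted p = 0.000288) and the glycine transporter Slc6a9 by 1.33 (adjusted p = 0.00596). Both also rose on top of IL-1β, by 1.11 and 0.82. Csad, which makes the precursor of taurine, fell by 0.84 (adjusted p = 0.00158), and the choline transporter family member Slc44a2 fell by 0.90 (adjusted p = 0.00409). Cdo1, which starts taurine synthesis from cysteine, had a log2 change of 0.03 with glucosamine and rose by 0.52 with IL-1β (adjusted p = 0.000437).

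Akr1b1 reduces glucose to the osmolyte sorbitol. Its brightest probe set read 868, 878 and 874 untreated, 1569 and 1451 with glucosamine, 1389, 1318, 1209 and 1157 with IL-1β, and 1606, 1712, 1367 and 1237 with both. All treated arrays were above all untreated arrays, and the treated groups with IL-1β overlapped each other. Glucosamine raised it 1.73-fold (log2 change 0.79, SE 0.13, adjusted p = 0.0012) and IL-1β raised it 1.45-fold (adjusted p = 0.00272). On top of IL-1β the log2 change was 0.21 (adjusted p = 0.159), and it passed the test without both d arrays (0.25, adjusted p = 0.0466) and with the array letters as a replicate block (0.21, adjusted p = 0.0409). A dim further probe set, 1396360_at, ranged from 6.04 to 72.4 with no order by group. With the mean of both probe sets the calls for glucosamine and for IL-1β were lost, at log2 changes of 0.19 and 0.06.

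The sorbitol list held 6 further genes, of which 1 rose and 0 fell with glucosamine, with a median of 0.08, beside background shares of 7.14% and 7.56%. Akr1b8, an aldo-keto reductase close to Akr1b1 in sequence, rose from 113 ± 8.31 (SD, n = 3) to 2067 ± 15.5 (n = 2), a log2 change of 4.20 (adjusted p = 9.05e-10), and with IL-1β it rose by 4.59 (adjusted p = 2.25e-11). It had been put on the list with earlier results known, and the single probes that could tell the relatives apart were not used here. Sord, which turns sorbitol into fructose, had a log2 change of -0.30 with glucosamine (adjusted p = 0.362) and fell by 1.05 with IL-1β (adjusted p = 0.000163).

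Slc23a2, a sodium-driven carrier of vitamin C, responded to both agents. Its brightest probe set read 121, 117 and 123 untreated, 797 and 874 with glucosamine, 281, 269.8, 356 and 328 with IL-1β, and 744, 736, 702 and 778 with both. The groups formed separate steps, with untreated lowest, IL-1β next, both agents above it and glucosamine alone highest, and none of these steps overlapped. The last step was not past the threshold in limma (log2 change -0.17, adjusted p = 0.822), but the Tukey test of the study's methods called it. Glucosamine raised Slc23a2 6.94-fold (log2 change 2.79, SE 0.11, adjusted p = 3.86e-08), and IL-1β raised it 2.55-fold (adjusted p = 4.51e-07). On top of IL-1β the rise was 2.41-fold (adjusted p = 5.87e-07). The further probe set 1369378_at read 44.5, 47.4 and 35.1 untreated, 342 and 269.9 with glucosamine, 60.1, 95.7, 124 and 98.4 with IL-1β, and 219, 243, 277 and 203 with both. It gave close changes of 2.85, 1.12 and 1.35 in the same 3 comparisons, all past the threshold.

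Of the other 4 ascorbate genes, 2 rose with glucosamine and 0 fell, with a median of 0.23, beside background shares of 7.14% and 7.56%. Slc2a1, the glucose transporter that also carries oxidized vitamin C, rose by 1.11 (adjusted p = 2.41e-06), and Gsto1, which can reduce it, rose by 0.45 (adjusted p = 0.000869). IL-1β also raised both, by 1.69 and 0.35. The relative Slc23a1 was below the floor on every array without IL-1β.

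**Figure D3:**
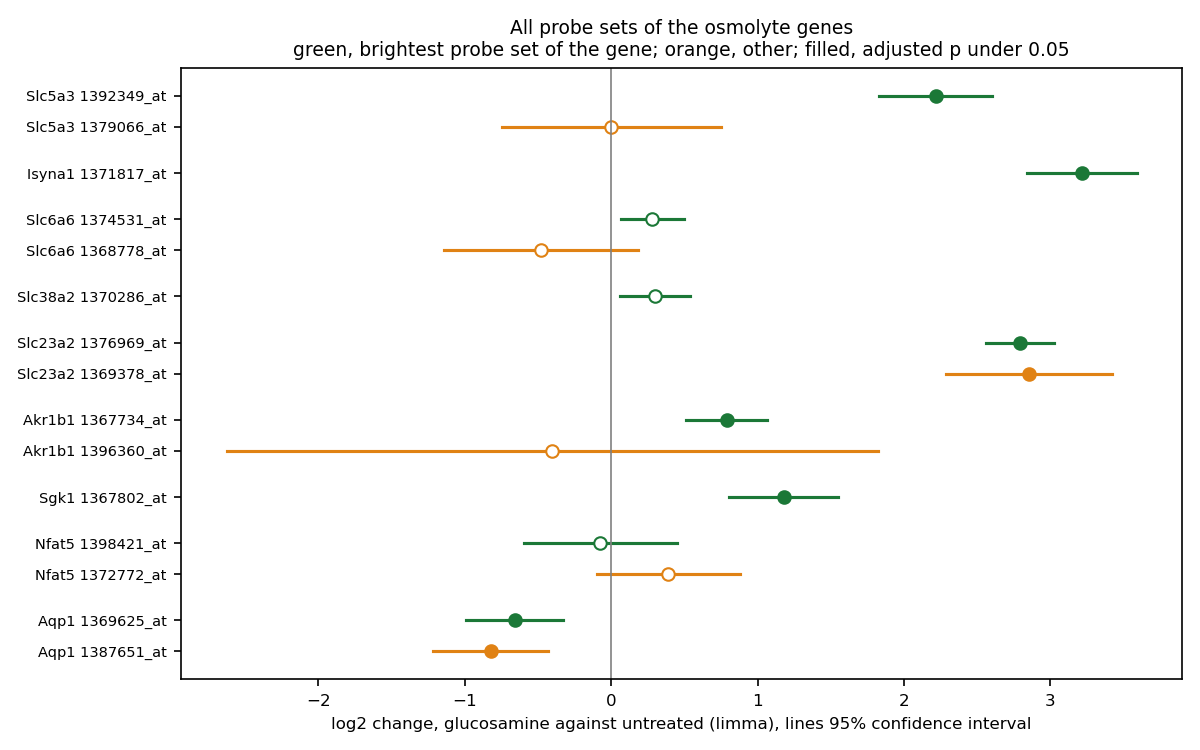
Log2 change with glucosamine against untreated (horizontal axis), with 95% confidence intervals, for all 15 probe sets of the 9 measured genes (vertical axis). Green points are the brightest probe set of each gene and orange points the others, and filled points passed an adjusted p of 0.05. Both probe sets of Slc23a2 and of Aqp1 moved together, while those of Slc6a6 pointed in different directions and neither passed the test.

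The regulators differed from each other. Nfat5, the tonicity-responsive transcription factor, read 399.9, 382 and 397 untreated, 465 and 299.9 with glucosamine, 585, 524, 361 and 374 with IL-1β, and 399, 307, 428 and 450.3 with both. The 2 glucosamine arrays lay on either side of the untreated arrays, and all groups overlapped. The log2 change with glucosamine was -0.07, with a 95% confidence interval of -0.60 to 0.45, so that with 2 arrays the interval covered changes from 0.661-fold to 1.37-fold. A further probe set, 1372772_at, read 243, 214 and 232 untreated and 292 and 310.3 with glucosamine. Its log2 change of 0.39 did not pass the test (adjusted p = 0.362), although those arrays did not overlap, and it passed in a fit of the 2 groups alone (adjusted p = 0.00677). The array measured the RNA of this factor and not its activity.

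Sgk1 encodes a kinase that acts on channels and carriers and whose RNA is known to rise on cell shrinkage, serum and steroid hormones. It read 255, 276 and 257 untreated, 578 and 612 with glucosamine, 621, 819, 618 and 985 with IL-1β, and 622, 654, 596 and 706 with both. All 10 treated arrays were above the 3 untreated arrays, and the group with both agents overlapped each group with 1 agent. Glucosamine raised Sgk1 2.26-fold (log2 change 1.18, SE 0.17, adjusted p = 0.000582) and IL-1β raised it 2.84-fold (adjusted p = 9.01e-06). On top of IL-1β the log2 change was -0.21 (95% confidence interval -0.50 to 0.08, adjusted p = 0.332).

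Of 10 genes of the SGK family, its targets and the NFAT relatives of Nfat5, 0 rose and 1 fell with glucosamine in limma, with a median of -0.03, where 7.14% of all probe sets rose and 7.56% fell. At an unadjusted p under 0.05, 2 were higher and 2 lower, where 11.9% of all probe sets were higher and 12% lower. The one that fell was Ndrg1, whose protein SGK1 phosphorylates, by 0.60 (adjusted p = 0.00024), and IL-1β raised it by 0.83 (adjusted p = 1.61e-06). Tsc22d3, a target of steroid hormones, had a log2 change of 0.44 with glucosamine (adjusted p = 0.125) and rose by 0.85 on top of IL-1β (adjusted p = 0.000578).

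Aqp1, the water channel of the plasma membrane, was the member that fell. Its brightest probe set read 990.1, 971 and 1004 untreated, 607 and 645 with glucosamine, 333, 461, 479 and 535 with IL-1β, and 529, 480.3, 497 and 466 with both. All treated arrays were below all untreated arrays, and glucosamine alone lay between the untreated cells and those with IL-1β. It was 1.58-fold lower with glucosamine (log2 change -0.66, SE 0.15, adjusted p = 0.0111) and 2.22-fold lower with IL-1β (log2 change -1.15, SE 0.13, adjusted p = 3.11e-05). On top of IL-1β the log2 change was 0.14 (95% confidence interval -0.11 to 0.40). Its further probe set, 1387651_at, read 621, 592 and 612 untreated, 364 and 325 with glucosamine, 178, 277, 264 and 290.5 with IL-1β, and 212, 237, 259 and 274 with both, and it fell by 0.82 and 1.29 in the same comparisons (adjusted p = 0.00843 and 4.92e-05). With either glucosamine array left out, the fall of the brightest probe set missed the threshold (adjusted p = 0.0943 and 0.0596).

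The summed signal of the 6 measured chondrocyte markers moved in the same order as the brightest Aqp1 probe set. The further Aqp1 probe set differed in the last step, with means of 253 with IL-1β and 246 with both. Not every marker was shown to follow the sum. Acan had means of 240 untreated and 260 with glucosamine, on overlapping arrays, a log2 change of 0.10 that did not pass the test. From IL-1β to both agents, Acan, Hapln1, Col11a1 and Comp rose past the threshold. In that step Col2a1 (means 2812 and 2829) and Col9a1 (763 and 681) did not pass the test. The chondrocyte sum was 9387 to 10630.0 on untreated arrays, 7227 to 7569.7 with glucosamine, 5099.5 to 6187 with IL-1β and 5639 to 6790.3 with both. Aqp1 is also a gene of endothelium and red blood cells. The summed signal of the 4 measured endothelial markers was 46.7 to 64.2 untreated, 55.2 to 55.5 with glucosamine, 91.8 to 197 with IL-1β and 54.8 to 148 with both. That of the 3 measured red blood cell markers was 36.5 to 44.1, 44.3 to 45.8, 41.3 to 158 and 50.7 to 160.0 in the same order. The highest value of each list in both groups with IL-1β came from the d array. Without those arrays the endothelial sums were 91.8 to 111 with IL-1β and 54.8 to 75.2 with both, and the red blood cell sums 41.3 to 57.2 and 50.7 to 58.0. Tek made up most of the endothelial sum untreated, with a mean of 36.9, while Vwf was above the floor on 1 array with IL-1β and 1 with both. The part of these cell types in the Aqp1 result was not tested, and fewer cells of a type and less RNA per cell cannot be told apart in such bulk samples. None of the 8 other aquaporins rose or fell with glucosamine in limma, and 0 of them did at an unadjusted p under 0.05, where 11.9% of all probe sets were higher and 12% lower. The brightest of them were dim. Aqp5 had an untreated mean of 17.2, and Aqp9, with 2.13, was below the floor on every untreated array. Changes of such dim genes could have been missed.

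With glucosamine already present, no member passed the test for IL-1β. Against glucosamine alone, 0 of the 9 genes rose or fell with both agents, where 0.933% of all probe sets rose and 0.861% fell, and 1 gene was lower at an unadjusted p under 0.05, where 3.32% of all probe sets were higher and 4.45% lower. That gene was Aqp1, with a log2 change of -0.35 (adjusted p = 0.53). The analysis of variance and Tukey test named in the study's methods, on linear signals, called 1 gene, lower. That gene was not Aqp1 but Slc23a2, with means of 835 with glucosamine and 740 with both agents. Between these groups the intervals were wide, for example -0.24 to 0.47 for Sgk1 and -0.36 to 0.38 for Slc5a3.

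Whether glucosamine acted differently with and without IL-1β was tested by the interaction, the log2 change with glucosamine in the presence of IL-1β minus that in its absence. It was past the threshold for 4 of the 9 genes, 1 higher and 3 lower, where 3.98% of all probe sets were higher and 4.57% lower. Slc23a2 had an interaction of -1.52 (SE 0.13, adjusted p = 2.55e-05), Sgk1 of -1.39 (SE 0.21, adjusted p = 0.00152), Akr1b1 of -0.57 (SE 0.16, adjusted p = 0.0485) and Aqp1 of 0.80 (SE 0.19, adjusted p = 0.0215). All 4 were genes that each agent moved the same way when given alone. Isyna1, which both agents also raised, had an interaction of -0.48 that missed the threshold (adjusted p = 0.279), and Slc5a3 one of -0.05 (95% confidence interval -0.54 to 0.44). Of 25 alternative settings, the Akr1b1 call was lost under 13, 1 of them with the sign turned, and that of Aqp1 under 4, among them leaving out either glucosamine array.

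Beyond the members, 12 genes known to respond to hypertonic media were listed, of which 10 were measured, and 2 rose and 1 fell with glucosamine, with a median log2 change of 0.18, beside background shares of 7.14% and 7.56%. Ddit4l, an inhibitor of growth signalling, went from 12.6 ± 2.21 (SD, n = 3) to 504 ± 19.4 (n = 2), a log2 change of 5.33 (adjusted p = 1.93e-09), but it rose almost as far with IL-1β alone, by 4.95 (adjusted p = 9.24e-11), and it had been listed with earlier results known. The chemokine Ccl2 rose by 1.68 with glucosamine (adjusted p = 9.18e-06) and by 4.44 with IL-1β, and the matrix protein gene Ccn1 fell by 1.34 with glucosamine (adjusted p = 0.0123). Slc38a1, a carrier related to Slc38a2, had a log2 change of 0.20 with glucosamine (adjusted p = 0.238), fell by 0.49 with IL-1β (adjusted p = 0.000697) and rose by 0.35 on top of it (adjusted p = 0.00449). S100a4, a calcium-binding protein gene, stood at 3057 ± 306 (SD, n = 3) untreated and 3025 ± 86.9 (n = 2) with glucosamine (adjusted p = 1).

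Of 16 tested genes of ion transport and cell volume, 4 rose and 0 fell with glucosamine, with a median of 0.05, beside background shares of 7.14% and 7.56%. Fxyd2, a small regulator of the sodium pump that was listed with earlier results known, had mean signals of 21.2 ± 4.41 (SD, n = 3) untreated, 233 ± 7.10 (n = 2) with glucosamine, 20.0 ± 8.61 (n = 4) with IL-1β and 210.1 ± 41.2 (n = 4) with both. Like Slc5a3 it was high wherever glucosamine was present and stayed low with IL-1β alone, and its log2 changes were 3.48 (adjusted p = 0.000252) and 3.52 on top of IL-1β (adjusted p = 1.7e-05). Lrrc8b and Lrrc8d, subunits of the channel that lets osmolytes out of swollen cells, rose by 0.68 (adjusted p = 0.0313) and 0.64 (adjusted p = 0.000422) with glucosamine. IL-1β alone raised them by 1.26 and 2.14, and on top of IL-1β glucosamine lowered them, by 0.49 and 1.39. Slc12a4, a potassium chloride cotransporter, rose by 0.49 with glucosamine (adjusted p = 0.0341). Over all 9 lists, 84 of 92 genes were tested, 15 rose and 7 fell, with a median log2 change of 0.00, where 7.14% of all probe sets rose and 7.56% fell. This background is over probe sets and not over genes by their brightest probe set.

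**Figure D4:**
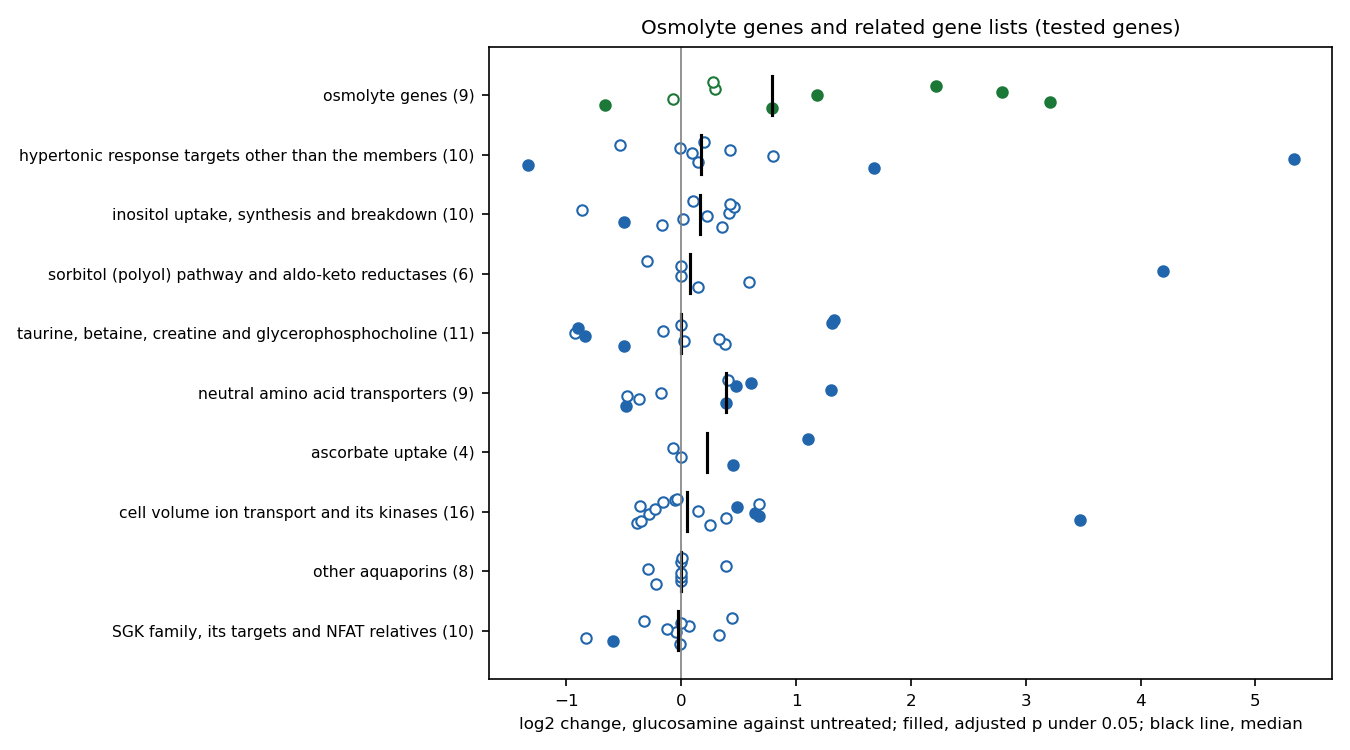
Log2 change with glucosamine against untreated (horizontal axis) for the 9 measured osmolyte genes and the tested genes of 9 related lists (vertical axis, number of genes in parentheses). Each point is a gene, filled where the adjusted p was under 0.05, and the black line is the median. The osmolyte genes had a median of 0.79 and the lists medians between -0.03 and 0.39. Genes and lists were chosen with earlier results of these data known.

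Over the 13 arrays, which share groups and flasks, the 4 members with the widest range of group means were set against 11138 other genes by the Pearson r of log2 signals. Nearest to Isyna1 were Mrps6, Coq10a and Mras, each with r = 0.99. Nearest to Slc5a3 were Creld2, Ptgs1 and Dnajb11 (r = 0.98 each), of which Creld2 and Dnajb11 encode proteins of the endoplasmic reticulum and Ptgs1 a prostaglandin synthase. Creld2 had mean signals of 449 ± 20.9 (SD, n = 3) untreated, 2052 ± 198 (n = 2) with glucosamine, 529 ± 49.4 (n = 4) with IL-1β and 2224 ± 177 (n = 4) with both. Nearest to Slc23a2 were Rmdn3 (r = 0.99), the phosphatase gene Dusp1 and the glycosylation gene Alg12 (r = 0.98 each), with Dusp1 at 569.6 ± 5.70, 1472 ± 63.7, 909 ± 43.6 and 1556 ± 90.5 in the same order of groups. Nearest to Sgk1 were Csrnp1 (r = 0.98), Eeig1 and Igf2bp2 (r = 0.97 each). These values describe likeness over 13 arrays in 4 groups and carry no test.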

How the data were processed

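Rat chondrocyte RNA was hybridized to 13 Affymetrix arrays, 1 per flask. Per the methods, the authors read images with Microarray Suite (MAS5, version 5 per the labels) and made 1 intensity per probe set with Probe Profiler, weighting probe pairs and scaling each array. The deposited intensity values are linear, can be negative, and had array means of 127 to 145, although the methods give a common scale of 100.

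Here 57 control probe sets were left out of 31099, values were raised to a floor of 5.71 (the 25th percentile of all values) and log2 was taken. The floor understates changes of dim genes. The 29263 probe sets above the floor on at least 1 array were fitted with limma 3.58.1 in R 4.3.3 (lmFit, eBayes with trend, 4 groups, 9 residual degrees of freedom), with Benjamini-Hochberg adjustment over all of them and a threshold of 0.05. The code was tested on simulated data. Genes came from the platform annotation, which paired 20826 probe sets with 1 gene, 436 with several and 9780 with none. A gene was represented by its probe set with the highest mean log2 signal. Promoters came from RefSeq (GRCr8).

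Members, lists and tests were chosen with earlier results of these data known. The text names all members, of each list up to 4 called genes with the largest change with glucosamine and up to 2 uncalled genes with the highest signal, and the 3 genes most like each of 4 members. Alternatives were other floors, filters, scalings, probe set rules and tests, a replicate block, and each array left out. Array letters were not shown to pair arrays. Between IL-1β and both agents the 4 same-letter correlations of deviations from group means were 0.375 to 0.797. Replicates a to c correlated across letters as well, at 0.333 to 0.561, and only the d arrays stood clear, at 0.797. The group means include the outlying d arrays, which by construction shift the deviations of a to c together. The correlations among a to c therefore cannot decide whether letters pair arrays. No pair of arrays within a group held identical values (r 0.8801 to 0.9928).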

Additional observations from a re-analysis of the deposited data

Results flagged for a closer look

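The further Slc5a3 probe set, 1379066_at, had 1 array far from the other 3 in both IL-1β groups. With IL-1β alone replicate d was listed at 9.96, and with both agents replicate d was at 12.5, while all other arrays of the series were below the floor of 5.71. These are the arrays whose dimmest values stood apart. With the other 3 arrays raised to the floor the gap is the whole range by construction. On the deposited values the gap was 0.924 of the range with IL-1β and 0.586 with both agents, and only the former was past the critical value of Dixon's test. Chance marks about 1 in 20 groups, and 30 were examined.

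The change with glucosamine differed between cells with and without IL-1β, by the interaction of the limma fit, for 5 probe sets. The differences (log2) were -1.52 for Slc23a2 1376969_at and -1.50 for Slc23a2 1369378_at, -1.39 for Sgk1, -0.57 for Akr1b1 and 0.80 for Aqp1. For Sgk1, Akr1b1 and Aqp1 each agent alone moved the gene the same way, and the change of the second agent on top of the first did not pass the test. Slc23a2 still rose with glucosamine on top of IL-1β, and the interaction of its dimmer probe set was lost without glucosamine replicate a (-1.33, adjusted p = 0.0962).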

How the results depend on the processing

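Over 1161 values of the representative probe sets under all alternatives, 1122 kept their direction and their side of the threshold, 25 lost the call, 13 gained one and 1 reversed. The reversal was the Akr1b1 interaction, 0.15 (adjusted p = 1) with the mean of both probe sets, and the low signal of the second set enters that mean by construction. The methods' analysis of variance and Tukey test called 4 members for glucosamine, 2 for IL-1β, 3 for glucosamine on top of IL-1β and 1 for both agents against glucosamine, and over all probe sets 2814, 2703 and 865, with 2439 for glucosamine. With 1 probe set per gene, IL-1β gave 4470 calls and glucosamine on top of IL-1β 4487, from fewer features. A fit of the 2 groups alone called 9173 probe sets for glucosamine, Slc6a6 and Slc38a2 then among them (adjusted p = 0.0183 and 0.014), with Nfat5 1372772_at higher (0.39, adjusted p = 0.00677) and Slc6a6 1368778_at lower (-0.48, adjusted p = 0.041), and 148 for both agents against glucosamine. Without both d arrays the calls were 7108 for glucosamine, 894 for both agents against glucosamine and 4253 for the interaction. Leaving out 1 array at a time gave 2389 to 5222 calls for glucosamine (lowest without glucosamine replicate b), 221 to 588 for both agents against glucosamine and 1485 to 3044 for the interaction, and of the members 0 to 1 and 2 to 4 in the last 2 comparisons. The cause was not tested. A replicate block on the array letters called 7 members for glucosamine, 5 for IL-1β, 6 for glucosamine on top of IL-1β, 0 for both agents against glucosamine and 5 for the interaction, adding Slc6a6, Akr1b1 and the Isyna1 interaction (-0.51, adjusted p = 0.0283). Between IL-1β and both agents, where the block gained Akr1b1, replicates a to c correlated across letters as they did within them. Only the d arrays stood clear, and they enter the group means, so the letters were not shown to pair arrays. Over all 16 same-letter pairs the median correlation was -0.06 (range -0.17 to 0.80). Single arrays also decided some near-threshold values, since Slc38a2 passed for glucosamine without IL-1β replicate a (adjusted p = 0.04), Aqp1 passed for both agents against glucosamine without the same array (adjusted p = 0.0351), and Slc6a6 passed for IL-1β without replicate d of both agents (adjusted p = 0.0468). Under quantile normalization Slc38a2 fell by 0.25 with IL-1β (adjusted p = 0.0189). That scaling moved the median change of all probe sets with IL-1β from 0.10 to 0.01. Dim probe sets near the floor, such as Slc5a3 1379066_at, could not be read, and without both d arrays that set could not be fitted.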

Other observations

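A few genes of the related lists, chosen after their values were seen, moved with IL-1β and moved the other way with glucosamine on top of it. The change with glucosamine alone is given for Cryab only. Cryab, a small heat shock protein gene known to respond to salt, fell by 2.62 (log2) with IL-1β (SE 0.15, limma adjusted p = 1.03e-07) and rose by 2.41 with glucosamine on top of IL-1β (adjusted p = 1.75e-07), while glucosamine alone left it at 0.15 (adjusted p = 0.843). Slc2a13, the proton-driven inositol transporter, fell by 0.92 with IL-1β (adjusted p = 0.000173) and rose by 0.85 with glucosamine on top of it (adjusted p = 0.000205), unlike Slc5a3, which IL-1β left at 0.06. Nfatc2, a relative of Nfat5 that answers to calcium, rose by 1.90 with IL-1β (adjusted p = 0.00607) and fell by 1.41 with glucosamine on top of it (adjusted p = 0.0222). Atp1b1, a subunit of the sodium pump that Fxyd2 regulates, rose by 0.48 with IL-1β (adjusted p = 0.0227) and fell by 1.18 with glucosamine on top of it (adjusted p = 3.28e-05). For Atp1b1 the fall was larger than the rise. The comparisons with IL-1β and on top of IL-1β share the IL-1β arrays.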
